A study of Ovis aries with 2 samples.

Results

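Decorin (DCN), lumican (LUM), biglycan (BGN) and versican (VCAN) are 4 of the 18161 genes measured in single cells of Hu sheep lambskin. They were taken by name, and all 4 were detected in both libraries. Skin from the body side of straight wool lambs and of curly wool lambs was sampled at day 3 of age, skins of 3 lambs were pooled for each wool type, and cells from isolated follicles and from whole skin were mixed before loading on the 10× Genomics platform. There was 1 library per wool type, so no test was possible, the spread between lambs is unknown, and every interval given here covers counting error only.

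Proteoglycans are core proteins of the extracellular matrix that carry glycosaminoglycan chains. Decorin, lumican and biglycan are small leucine-rich proteoglycans: decorin and lumican bind collagen fibrils and set their spacing, and biglycan binds collagen and growth factors. Versican belongs to the large lecticans, which bind hyaluronan, and is known from the dermal papilla of the growing follicle. The dermal papilla is a cluster of mesenchymal cells at the base of the follicle that signals to the matrix, the dividing epithelium from which the inner root sheath (IRS) and the hair shaft are made. In the RefSeq annotation of ARS-UI_Ramb_v3.0, LUM and DCN are direct neighbours on chromosome 3, with KERA, which encodes keratocan of the same family, next to LUM. VCAN is on chromosome 5 beside HAPLN1, the gene of a link protein that joins lecticans to hyaluronan, and BGN is on chromosome X.

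From straight skin came 6452 cells with 57956122 unique molecular identifiers in sum (UMIs, the count of captured transcripts), and from curly skin 7585 cells with 77634565. A cell barcode occurred in both libraries in 70 cases. The cells formed 30 clusters without use of the 4 genes, of which 18 could be named from markers as "X-like" classes. The 12 unnamed clusters held 39.0% of straight and 40.6% of curly cells. Straight and curly follow the sample titles and the study's text. The labels also call the second phenotype waved. The study used DCN as a marker of matrix cells and LUM as a marker of dermal fibroblasts, so their high levels there were known beforehand and are described without support from those names. It also named LUM for the dermal lineages together. DCN was further among its dermal papilla signature genes that differed between straight and curly wool, so a DCN difference there was known as well. Levels are UMIs summed over the cells of a class, as counts per 1e+06 UMIs of that class and library (CPM). Values are given for the straight library first and the curly library second.

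Dermal cells were the dermal papilla cell (DPC)-like class, in clusters 0 and 5, and the fibroblast-like class. The 9 DPC markers, such as IGFBP3 and CRABP1, summed to 14599 and 19094.5 CPM in the DPC-like class, and the 12 fibroblast markers, such as COL3A1, summed to 28671 and 29956 CPM in the fibroblast-like class. The fibroblast-like class was small and shallow, with 46 and 57 cells at a median of 919.5 and 978 UMIs, and SFRP2 of its list was at 0 in both libraries. Matrix-like cells (198 and 407) had FABP7 and DLX4 among their leading genes, with MSX1 alone of the matrix list and DPP4 of the fibroblast list. They scored 1.53 with the matrix list, where the naming limit was 1.5, set after seeing the data, and hair shaft-like cells scored 1.91. Their 7 markers summed to 1886 and 1841 CPM, but hair shaft-like cells reached 2647 and 2199 CPM with the same list, and SHH had 0 and 1 UMI in matrix-like cells, so the summed list did not separate matrix from hair shaft. Cluster 10, led by genes of cell division, had the matrix list second, with MSX1 at 200.6 and 177 CPM, and is described as cycling-like. The other follicle epithelium was taken as IRS-like, hair shaft-like and hair follicle stem cell (HFSC)-like cells together. No cluster met the naming rule for outer root sheath or companion layer. Clusters 9 and 23 scored 2.94 and 3.04 with the companion layer list, and cluster 25 scored 1.41 with the outer root sheath list. These clusters stayed unnamed and are not part of the other follicle epithelium.

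DCN was highest in fibroblast-like cells and in matrix-like cells, an epithelial class. Fibroblast-like cells came first with the clusters used here, and matrix-like cells came first when the 4 genes were allowed to shape the clusters (fibroblast-like over matrix-like cells at -0.78 on the log2 scale as the mean of both libraries). Fibroblast-like cells had 7574 CPM (95% Poisson interval 6985 to 8199, 611 UMIs) and 10946 CPM (10317 to 11604, 1128 UMIs). Matrix-like cells had 4466 CPM (4387 to 4547, 12006 UMIs) and 4720.4 CPM (4669 to 4773, 31787 UMIs). Matrix-like cells held 42.3% and 46.4% of all DCN UMIs of their libraries from 3.07% and 5.37% of the cells, while fibroblast-like cells held 2.15% and 1.65%. A DCN UMI was present in 81.3% and 94.6% of matrix-like cells, which held 14818 and 16839 UMIs at the median. The share was 8.33% and 16.9% in endothelial-like cells, taken as cells that should lack DCN, whose median was 5306 and 3827 UMIs. The fibroblast list summed to 3126 and 4973 CPM in endothelial-like cells, above its 2460.5 and 2182 CPM in DPC-like cells. COL3A1 of that list was low there, as given further on. This reference is therefore not clear of the whole fibroblast list. With each cell thinned to 1000 UMIs, DCN was in 70.7% and 79.6% of matrix-like cells, and in 3.27% and 5.80% of endothelial-like cells, with 39 and 28 shallower endothelial-like and 7 and 0 shallower matrix-like cells left out. The matrix signal thus stood far above that of endothelial-like cells in both libraries.

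Within the epithelium DCN was graded. Cycling-like cluster 10 had 1643 and 2522 CPM, and cluster 19, an unnamed cluster led by C1QTNF12, STC1 and PTGS2, had 1604 and 1238 CPM. Hair shaft-like cells had 546.5 and 1016 CPM. IRS-like cells had 85.6 and 53.0 CPM, beside 80.4 and 52.1 CPM in endothelial-like cells, where the straight value came from 105 UMIs in 16 cells. Thinned to 1000 UMIs, DCN was in 8.13% and 4.67% of IRS-like cells, above the endothelial-like share in the straight and below it in the curly library. Suprabasal IFE-like cells had 12.5 and 15.2 CPM, so the level in endothelial-like cells is not the lowest of the classes. The log2 difference of matrix-like over IRS-like cells was 5.71 (5.48 to 5.94) in the straight and 6.48 (6.33 to 6.63) in the curly library, and that of matrix-like over hair shaft-like cells was 3.03 (2.97 to 3.09) and 2.22 (2.18 to 2.25). HFSC-like cells had 25.7 and 35.2 CPM. With summed UMIs the order was fibroblast-like, matrix-like, cluster 10, cluster 19, pericyte-like in both libraries, without overlap of the 2 libraries' ranges between neighbours. The last 2 steps were within counting error in 1 library each. Per-cell averages reversed them there, with straight cluster 10 at 1726 and cluster 19 at 2508 CPM. In the curly library cluster 19 was at 1449 and pericyte-like cells at 1566 CPM, so no order is given for these steps. From there on, pericyte-like (626.5 and 1226 CPM), hair shaft-like, and low-depth cluster 1 (251.1 and 756.5 CPM, led by the haemoglobin gene HBB) overlapped their neighbours. Cluster 1 scored 2.60 with the IRS list and had KRT27 and KRT28 among its leading genes. Only its low depth, a median of 732.5 UMIs, kept it unnamed. Its IRS markers summed to 5265 and 8986 CPM, against 18817 and 25593 CPM in IRS-like cells. The DCN level given for IRS-like cells does not cover it.

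DCN levels varied widely among matrix-like cells. The 10th percentile, the median and the 90th percentile of the per-cell level were 0, 2800.1 and 10971 CPM in straight cells, and 119.9, 4168 and 11236 CPM in curly cells. Matrix-like cells with a UMI of TOP2A, a gene of dividing cells, had DCN at 3820.1 and 3432 CPM, and those without at 4705 and 5159 CPM. In cluster 10 the relation was the opposite, with 1793 and 2536 CPM in cells with a TOP2A UMI and 681 and 2385 CPM in the 39 and 52 cells without. A common relation of DCN to TOP2A detection was therefore not seen.

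In the dermal papilla, DCN separated both clusters. Cluster 0, led by CRABP1, PEBP4 and IGFBP3, had 547.5 and 883.9 CPM of DCN, in 63.5% and 67.7% of cells. Cluster 5, led by FGF7, EDN3 and STEAP1, had 22.8 CPM (112 UMIs) and 143.3 CPM (157 UMIs). The straight value of cluster 5 lay between those of suprabasal IFE-like and endothelial-like cells. Cluster 0 exceeded cluster 5 by 4.59 (4.31 to 4.88) and 2.63 (2.39 to 2.87) on the log2 scale.

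LUM was highest in dermal and mural cells. Fibroblast-like cells had 3855 CPM (3438 to 4308, 311 UMIs) and 2989 CPM (2664 to 3342, 308 UMIs). Pericyte-like cells, led here by DES, SNCG, PLN and RGS5, had 943.7 CPM (360 UMIs) and 422.8 CPM (290 UMIs). Pericytes wrap small vessels, but this class scored nearly as high with the contractile list (3.85) as with the pericyte list (3.92). In the DPC-like class LUM was almost limited to cluster 0, with 312.4 CPM (926 UMIs) and 159.9 CPM (314 UMIs), against 4.27 CPM (21 UMIs) and 0.913 CPM (1 UMI) in cluster 5. These 3 levels, fibroblast-like, pericyte-like and DPC-like (120.1 and 102.9 CPM), followed each other without overlap of the libraries' ranges. Endothelial-like cells came next with 16.1 CPM (21 UMIs in 5 cells) and 3.47 CPM (3 UMIs), and below them nearly all neighbours overlapped.

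Matrix-like cells, where DCN was high, had LUM at 1.12 CPM (3 UMIs) and 1.04 CPM (7 UMIs). LUM was in 1.52% and 0.737% of matrix-like cells, below its 2.60% and 1.81% in endothelial-like cells, so matrix-like cells showed no LUM above background despite their greater depth. Hair shaft-like cells had 1.22 and 0.867 CPM of LUM, and cluster 19 had 0 and 1 UMI, where 0 UMIs allow a level of up to 1.60 CPM. The neighbouring genes DCN and LUM were thus both present in fibroblast-like, pericyte-like and cluster 0 cells, and only DCN was above background in the matrix-like, cycling-like and hair shaft-like cells (plot of DCN against LUM by class). KERA, the other neighbour of LUM, had 0 UMIs in 46 straight and 87 UMIs in 57 curly fibroblast-like cells (844.3 CPM, in 16 cells), where 0 UMIs allow a straight level of up to 37.2 CPM.

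**Figure D1:**
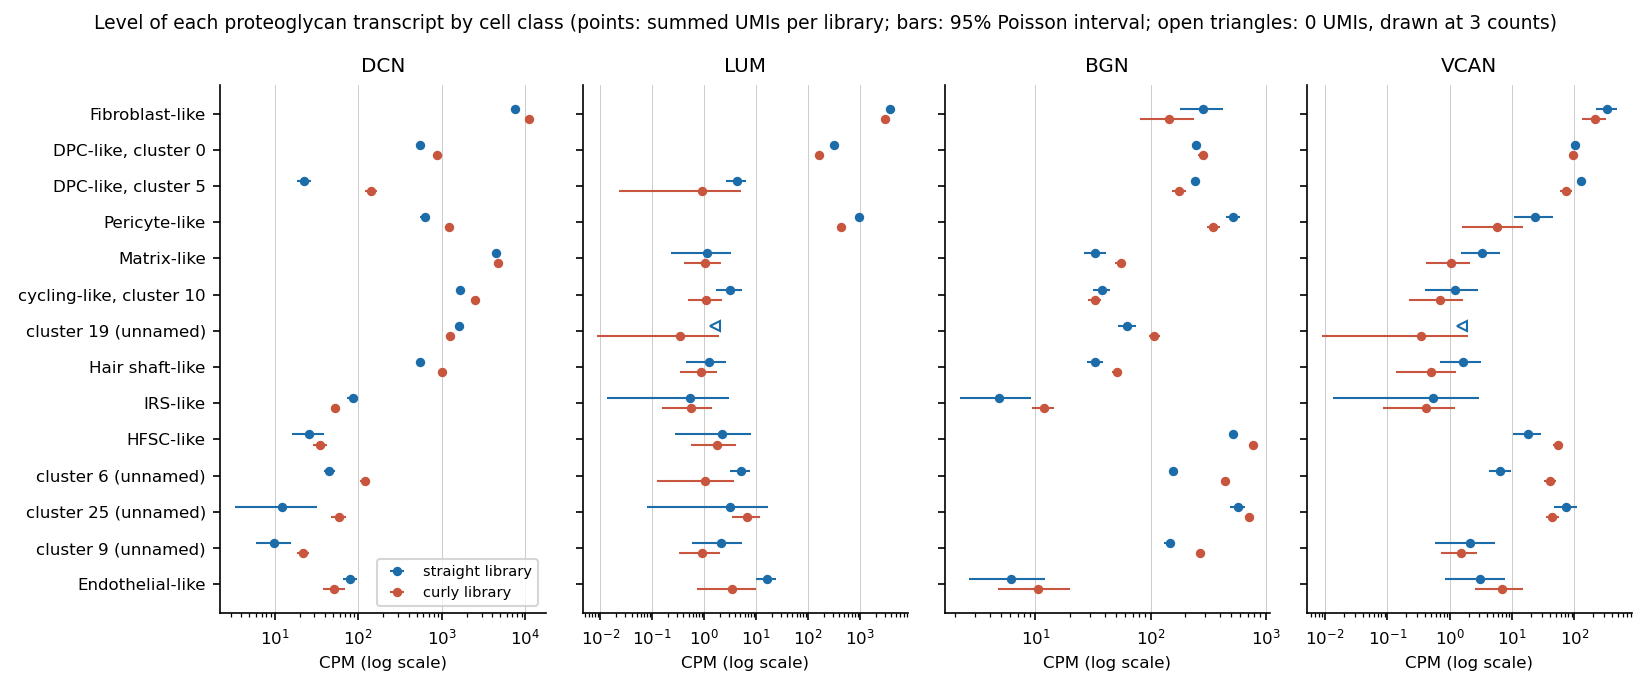
CPM (log scale) of DCN, LUM, BGN and VCAN in 14 cell classes and clusters, with 1 point per library (blue straight, red curly) and 95% Poisson intervals as bars, open triangles marking 0 UMIs at the level of 3 counts. DCN is high in fibroblast-like (7574 and 10946) and matrix-like cells (4466 and 4720.4), LUM only in fibroblast-like, pericyte-like and cluster 0 cells, and BGN is highest in cluster 25 and HFSC-like cells.

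**Figure D2:**
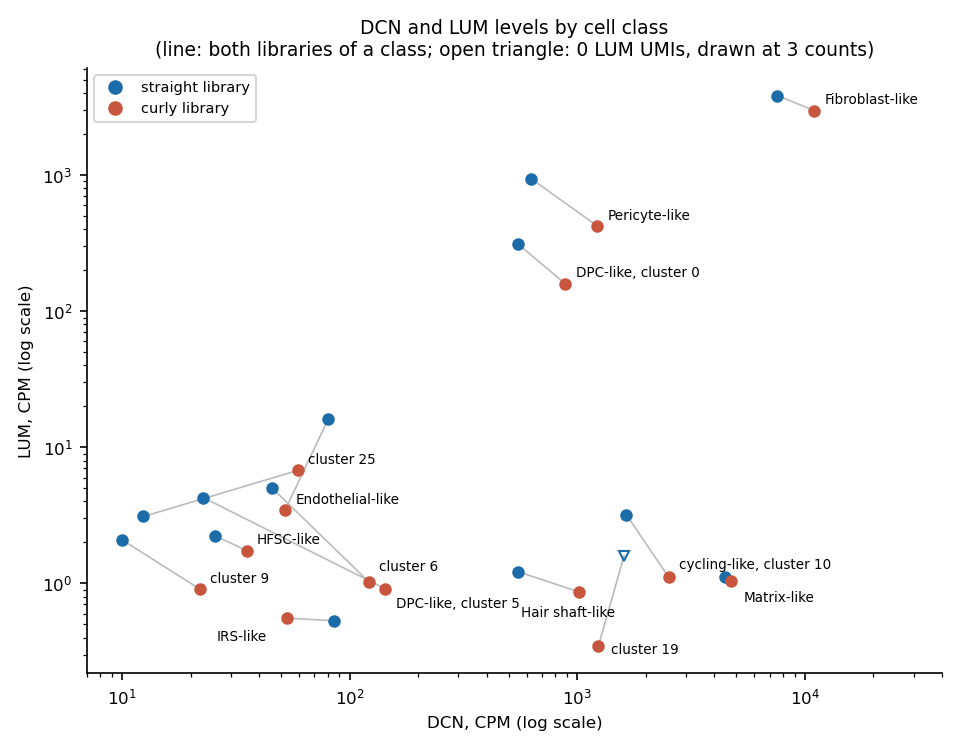
LUM against DCN, both in CPM on log scales, with a line joining the straight (blue) and curly (red) library of each class. Matrix-like, cycling-like cluster 10, cluster 19 and hair shaft-like cells lie at the right with LUM at 3.20 CPM or less, and fibroblast-like, pericyte-like and cluster 0 cells lie at the top.

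BGN had an epithelial side as well as a dermal side. HFSC-like cells, which keep the follicle renewing and carry KRT15 and LGR5, had 525.5 CPM (479.1 to 575.2, 471 UMIs) and 776.9 CPM (745 to 809.9, 2227 UMIs). Cluster 25, an unnamed cluster led by LCN2 and with VDR and FGF5 of the outer root sheath list, had 574.2 CPM (185 UMIs) and 713.5 CPM (1161 UMIs). The ranges of these groups overlapped, and pericyte-like cells followed with 519 CPM (198 UMIs) and 351.4 CPM (241 UMIs). DPC-like cells had 245.5 CPM (1936 UMIs) and 245.8 CPM (752 UMIs), with cluster 0 at 247.6 and 283.6 CPM and cluster 5 at 244.3 and 178 CPM. Cluster 0 over cluster 5 was 0.02 (-0.11 to 0.15) and 0.67 (0.43 to 0.92) on the log2 scale, a smaller difference than for DCN or LUM in each library. Fibroblast-like cells had 285.1 and 145.6 CPM from 23 and 15 UMIs.

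HFSC-like cells exceeded DPC-like cells in BGN by 1.10 (0.95 to 1.24) and 1.66 (1.54 to 1.78) on the log2 scale. BGN was in 59.3% and 75.1% of HFSC-like cells, and in 3.13% and 3.01% of endothelial-like cells, at median depths of 2988 and 5531 UMIs in the former and 5306 and 3827 UMIs in the latter. Thinned to 1000 UMIs, the shares were 32.8% and 42.3% in HFSC-like cells, and 19.7% and 17.1% in DPC-like cells. Cluster 6, in which KRT15 (LOC101117682) and SFRP1 were among the leading genes, had 158.1 and 444.4 CPM of BGN, and cluster 9, led by FABP4 and KRT6A, had 146.3 and 268.8 CPM. Matrix-like, hair shaft-like and cluster 10 cells had 32.7 to 54.9 CPM over both libraries. IRS-like cells, with 4.78 and 11.8 CPM, were within counting error of endothelial-like cells, with 6.13 and 10.4 CPM.

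VCAN was highest in dermal cells, with a weaker signal in HFSC-like cells, clusters 25 and 6 and, in the straight library, cluster 28. Fibroblast-like cells had 334.7 CPM (220.6 to 486.9) and 213.5 CPM (133.8 to 323.2), from 27 and 22 UMIs. DPC-like cells had 116.2 CPM (916 UMIs) and 86.6 CPM (265 UMIs). They held 79.8% and 37.8% of all VCAN UMIs of their libraries from 19.2% and 8.65% of the cells. Both of their clusters carried VCAN, with 100.9 and 93.7 CPM in cluster 0 and 125.4 and 73.9 CPM in cluster 5. Cluster 0 over cluster 5 differed in sign between the libraries, at -0.31 (-0.52 to -0.11) in straight and 0.34 (-0.04 to 0.74) in curly cells on the log2 scale.

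In the epithelium, cluster 25 had VCAN at 74.5 CPM (24 UMIs) and 44.3 CPM (72 UMIs), HFSC-like cells at 17.9 CPM (16 UMIs) and 53.7 CPM (154 UMIs), and cluster 6 at 6.52 CPM (27 UMIs) and 41.1 CPM (80 UMIs). In this order HFSC-like cells overlapped in range with both of the other clusters. The small cluster 28 (52 and 19 cells), unnamed and with PPARG among its leading genes, had 57.6 CPM (35 UMIs) in the straight and 3.31 CPM (1 UMI) in the curly library. VCAN was in 38.3% and 27.1% of DPC-like cells and in 1.56% and 1.81% of endothelial-like cells. Pericyte-like cells, high in the other 3 genes, had only 9 and 4 UMIs of VCAN (23.6 and 5.83 CPM). Matrix-like cells had 9 and 7 UMIs (3.35 and 1.04 CPM), and VCAN was in 3.03% and 1.47% of them.

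Dermal cells were then set against matrix-like cells for each gene. LUM, BGN and VCAN were at least 2-fold higher in dermal cells in both libraries, a rule met by 17.3% of the 8970 genes with at least 100 UMIs in these classes. DCN was at least 2-fold higher in matrix-like cells, a rule met by 10.4% of these genes. The log2 difference of dermal over matrix-like cells was 7.14 (5.59 to 9.42) and 7.57 (6.51 to 8.89) for LUM, from 3 and 7 matrix UMIs. For VCAN it was 5.14 (4.21 to 6.28) and 6.45 (5.39 to 7.78), and for BGN 2.89 (2.59 to 3.22) and 2.14 (1.96 to 2.32). DCN stood apart with -3.92 (-3.99 to -3.86) and -2.31 (-2.36 to -2.25), or 294.5 and 955.1 CPM in dermal against 4466 and 4720.4 CPM in matrix-like cells.

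The DPC-like and fibroblast-like classes differed in the direction for DCN. DPC-like over matrix-like cells gave -4.34 (-4.42 to -4.27) and -2.93 (-3.00 to -2.86), while fibroblast-like over matrix-like cells gave 0.76 (0.64 to 0.88) and 1.21 (1.13 to 1.30). The fibroblast-like excess turned to -0.78 as the mean of both libraries when the 4 genes were allowed to shape the clusters, where 343 instead of 103 cells were fibroblast-like, so it rests on how these cells are delimited. Of DPC-like over fibroblast-like cells, the log2 difference was -5.11 and -4.15 for DCN, -5.004 and -4.86 for LUM, -1.53 and -1.30 for VCAN, and -0.22 (-0.81 to 0.45) and 0.76 (0.02 to 1.60) for BGN, whose sign was not shared by the libraries.

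Against the other follicle epithelium, LUM and VCAN were at least 2-fold higher in dermal cells in both libraries, which 16.9% of 10396 genes were. LUM differed by 7.08 (6.15 to 8.21) and 7.80 (7.09 to 8.62), and VCAN by 5.19 (4.62 to 5.82) and 3.35 (3.07 to 3.64) on the log2 scale. BGN differed by 1.56 (1.43 to 1.69) and 0.69 (0.57 to 0.81), and this excess was gone when per-cell levels were averaged in place of summing UMIs, at a mean of -0.02 over the libraries. DCN differed by -0.34 (-0.42 to -0.26) in straight and 0.997 (0.94 to 1.06) in curly cells. Its mean of 0.33 became -0.17 at resolution 0.4 and -0.28 with a higher minimum of detected genes per cell, which kept 879 of 1998 dermal cells, so no direction is given for DCN here.

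**Figure D3:**
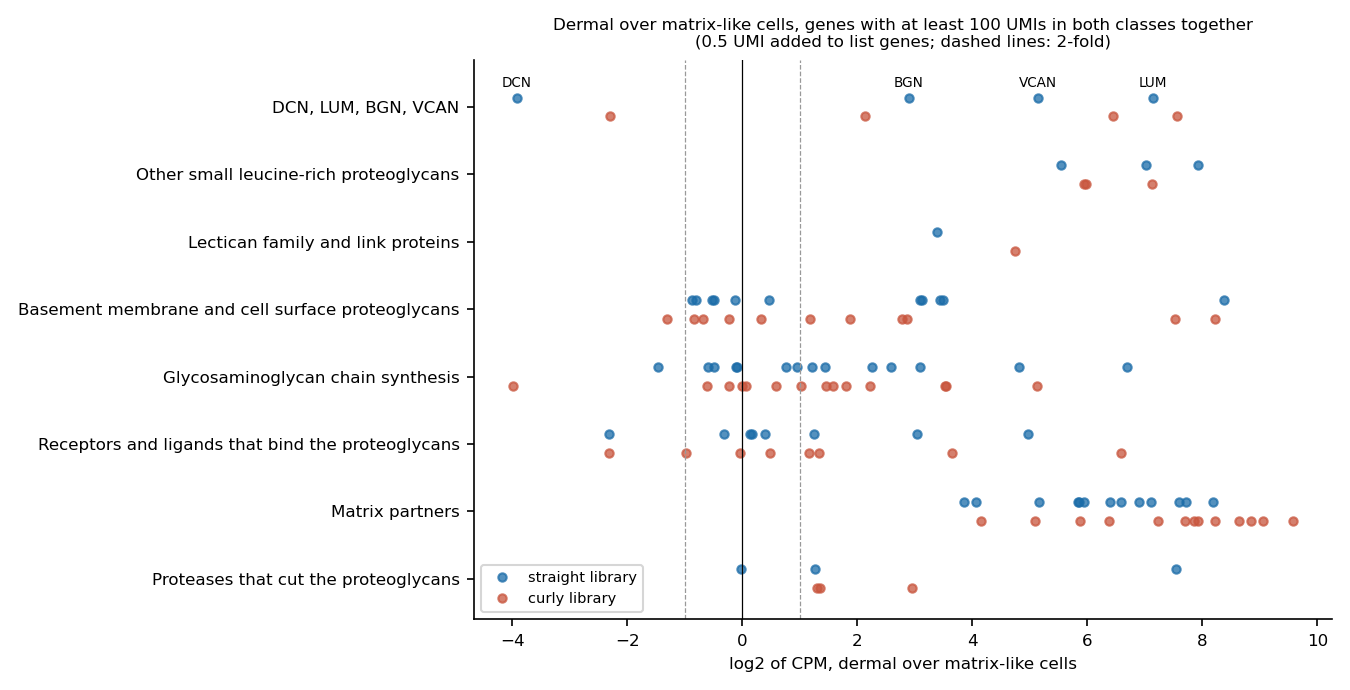
Log2 of CPM in dermal over matrix-like cells for each gene (points; blue straight, red curly library), in rows for the 4 proteoglycans and 7 gene lists, with dashed lines at 2-fold. DCN lies left of the lower line (-3.92 and -2.31) and the 13 matrix partner genes all lie right of the upper line. Of these, COL1A2, COL3A1, COL6A3 and FBLN1 were also markers that named the fibroblast-like class.

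Partner genes were compared in the same way, from lists of the pathway, with 0.5 UMI added to each sum. All genes tested had a median log2 difference of 0.11 between dermal and matrix-like cells. Where a gene had 0 UMIs in a class its difference depends on the added 0.5 UMI, so a list's median is also given with such genes set at 3 UMIs. Among 13 of 14 matrix partners with enough UMIs, all 13 were higher in dermal cells and the median was 7.17 (7.24 with genes at 0 set at 3 UMIs). COL1A2, COL3A1, COL6A3 and FBLN1 of this list were also fibroblast markers, which named a part of the dermal cells. Their dermal excess follows in part from that choice and is only described. COL1A1, the main fibrillar collagen chain of skin, had 1360 and 1746 CPM in dermal and 4.46 and 4.31 CPM in matrix-like cells, and FBLN1, the smallest of the differences, had 1161 and 1106 CPM against 80.4 and 61.9 CPM. Collagen transcripts were thus low in matrix-like cells, where DCN was high. COL3A1 had 5.21 and 1.49 CPM there, below its 9.19 and 10.4 CPM in endothelial-like cells.

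Of the other small leucine-rich proteoglycans, 3 of 11 had enough UMIs, and all 3 were higher in dermal cells, with a median of 6.505 (5.29 with genes at 0 set at 3 UMIs). PRELP, which anchors basement membranes to collagen, had 136.3 and 72.4 CPM in dermal and 0.372 and 0.446 CPM in matrix-like cells. ECM2 had 24.2 and 42.0 CPM against 0 and 0.594 CPM, and PODN 8.66 and 13.6 CPM against 0 and 0.149 CPM. Among the small leucine-rich proteoglycan genes with enough UMIs, DCN alone was higher in matrix-like cells. In the lectican list 1 of 7 genes could be compared, the link protein gene HAPLN3, with 9.67 and 9.80 CPM in dermal and 0.744 and 0.297 CPM in matrix-like cells. None of the 3 hyaluronan synthase genes had enough UMIs.

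Cell surface and basement membrane proteoglycans were divided, with 5 of 11 higher in dermal cells, 0 in matrix-like cells and 6 neither way, and a median of 0.82, also with genes at 0 set at 3 UMIs. GPC3, a glypican that binds signalling ligands, had 184.8 and 111 CPM in dermal and 0.372 and 0.297 CPM in matrix-like cells. TGFBR3, a co-receptor, had 10.4 and 13.6 CPM against 0.744 and 0 CPM, and SDC2 and COL18A1 followed with mean log2 differences of 3.00 and 2.93. At the other end were SDC4 (-1.09), GPC1 (-0.75), GPC4 (-0.68) and AGRN (-0.18), which did not reach 2-fold in both libraries.

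Enzymes that build the glycosaminoglycan chains were higher in dermal cells for 7 of 14 genes and in matrix-like cells for 1, with a median of 1.25 (1.26 with genes at 0 set at 3 UMIs). XYLT1, which starts the chain on the core protein, had 19.1 and 7.59 CPM in dermal and 0 and 0.149 CPM in matrix-like cells. Its paralog XYLT2 was 9.67 and 7.59 CPM against 5.58 and 5.05 CPM, a gene added after its values were seen, with 15 and 34 UMIs in matrix-like cells. CHST7, CHPF2 and CHPF had mean log2 differences of 4.17, 3.06 and 2.66. CSGALNACT1, which commits a chain to chondroitin sulphate, was higher in matrix-like cells, at 3.51 and 0.316 CPM against 9.67 and 7.43 CPM, from 28 and 1 dermal UMIs. B3GALT6 (-0.60), DSE (-0.24) and FAM20B (-0.16) did not reach 2-fold.

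Of the receptors and ligands, 3 of 8 were higher in dermal and 1 in matrix-like cells, with a median of 0.55 by either treatment of genes at 0. EGFR, a receptor that decorin can bind, was the gene higher in matrix-like cells, with 24.6 and 30.7 CPM against 4.90 and 6.01 CPM in dermal cells. Of the named classes EGFR was highest in HFSC-like cells, at 82.6 and 83.4 CPM, where DCN was 25.7 and 35.2 CPM. CCN4, LRP1 and ITGB1 were the 3 genes higher in dermal cells. CCN4 had 17.3 and 6.96 CPM against 0.372 and 0 CPM, and LRP1 and ITGB1 had mean log2 differences of 3.34 and 1.29. CD44, a receptor of hyaluronan, did not differ by 2-fold in both libraries, with 72.9 and 72.4 CPM in dermal and 55.4 and 32.2 CPM in matrix-like cells. TGFB1 (0.31), IGF1R (0.07) and TGFB2 (-0.64) did not reach 2-fold in either library.

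ITGB1 and CD44 were high in pericyte-like cells, with 424.7 and 431.6 CPM and with 277.9 and 252.2 CPM. Of the proteases, ADAMTS4, which cuts versican, had 174.2 and 28.1 CPM in dermal against 0.744 and 3.56 CPM in matrix-like cells. BMP1, which trims several proteoglycan precursors, had 21.0 and 17.4 CPM against 8.56 and 6.83 CPM, and both of these met the 2-fold rule, as 2 of 3 proteases with enough UMIs. ADAMTS1 had a mean log2 difference of 0.64, and the list a median of 1.31.

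Curly and straight libraries were compared within classes, as log2 of the CPM in curly over straight cells. In dermal cells as a whole DCN was 1.70 (1.62 to 1.78) higher in curly cells, and was the 1 gene of the 4 past 2-fold, as 7.73% of 6995 genes with at least 100 UMIs were. The dermal cells were made up differently in both libraries: cluster 5 held 604 of 1285 straight and 186 of 713 curly dermal cells, and the fibroblast-like class 46 and 57. In DPC-like cells together, where 7.97% of genes passed 2-fold, DCN was at 1.49 (1.40 to 1.59) and was again the 1 gene past it. Within cluster 0, where 5.04% of genes and 0 of the 4 passed, the DCN difference was 0.69 (0.59 to 0.79), within fibroblast-like cells, where 14.2% of genes passed, 0.53 (0.39 to 0.68) and within pericyte-like cells 0.97 (0.76 to 1.18). The fibroblast-like difference turned with per-cell averages, which were 9170 CPM (straight) and 7778 CPM (curly), so no direction is given for it. The summed pericyte markers also differed in pericyte-like cells, at 2831 and 885 CPM, and their part in the DCN difference was not tested. In cluster 5 the DCN difference was 2.65 (2.295 to 3.02), from 112 and 157 UMIs, where 11.8% of genes passed 2-fold. A DCN UMI was in 10.9% and 29.6% of cluster 5 cells. The share also rose in classes low in DCN, such as basal IFE-like (8.97% and 22.2%, at 38.6 and 43.4 CPM) and immune-like cells (9.30% and 21.9%, at 57.3 and 68.4 CPM). What this contributes to the cluster 5 difference was not tested. The size of the DCN difference for dermal cells as a whole exceeded that within cluster 0. For dermal cells as a whole it was 0.96 when per-cell levels were averaged, and with a higher minimum of genes per cell, which kept 879 of 1998 dermal cells, DCN was 3.15 and LUM 1.48.

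In the epithelium, DCN differed by 0.08 (0.05 to 0.11) in matrix-like cells, where 3% of genes passed 2-fold. This turned to -0.12 with per-cell averages, so no direction is given. It was 0.62 (0.58 to 0.66) in cluster 10 and 0.89 (0.83 to 0.96) in hair shaft-like cells, with 2.42% and 3.99% of genes past 2-fold. Cluster 19, where 2.29% of genes passed, had -0.37 (-0.44 to -0.30). IRS-like cells had -0.69 (-0.96 to -0.42) and endothelial-like cells -0.63 (-1.16 to -0.11), with 4.77% and 6.62% of genes past 2-fold. The endothelial-like difference turned with per-cell averages, which were 58.0 CPM (straight) and 76.4 CPM (curly), and a DCN UMI was in more of the curly cells, so no direction is given.

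LUM was lower in curly cells by -0.97 (-1.16 to -0.78) in cluster 0, by -1.16 (-1.39 to -0.93) in pericyte-like cells and by -0.37 (-0.60 to -0.14) in fibroblast-like cells. In pericyte-like cells, where 9.98% of genes passed 2-fold, LUM was the 1 gene past 2-fold of the 3 with at least 100 UMIs. Relative to the trimmed mean of all genes LUM was at -0.91 and DCN at 1.21. With that scaling DCN and not LUM passed 2-fold, so which gene passes rests on the scaling. The pericyte-like class itself differed between the libraries, with its marker RGS5 at 1730.1 and 268.3 CPM, and the part of this in the LUM difference was not tested. The trimmed mean of all genes lay at -0.30 in fibroblast-like cells, and relative to it LUM was at -0.06, so that difference rests on the scaling. In dermal cells as a whole LUM was 0.32 (0.18 to 0.46) higher in the curly library, and this turned to -0.15 with per-cell averages. At the finer resolution described further on, LUM was 275 and 10.2 CPM in a dermal cluster of 369 and 239 cells, and 465.8 and 459.4 CPM in that of 193 and 136 cells, so no direction is given for dermal cells together.

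**Figure D4:**
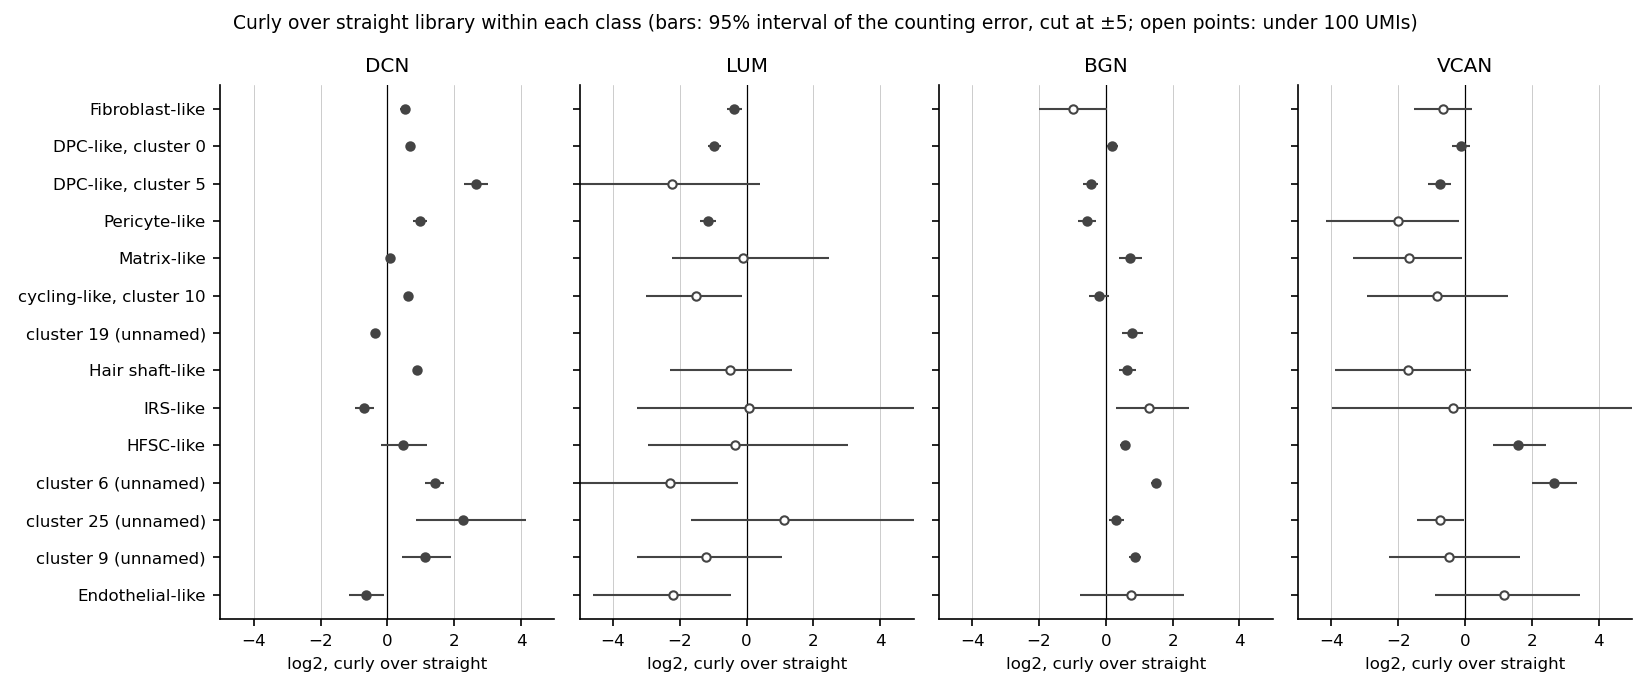
Log2 of CPM in the curly over the straight library within 14 classes and clusters, with bars for the 95% interval of the counting error cut at the axis ends and open points for under 100 UMIs. DCN lies right of 0 in fibroblast-like, cluster 0, pericyte-like and hair shaft-like cells (0.53 to 0.97), LUM lies left of 0 in the first 3 of them, where the DCN value of fibroblast-like cells turns with per-cell averages and their LUM value is -0.06 relative to the trimmed mean, and BGN lies right of 0 in HFSC-like cells and cluster 6.

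BGN differed by less than the counting error in DPC-like cells, at 0.00 (-0.12 to 0.12), and clusters 0 and 5 had 0.20 (0.03 to 0.36) and -0.46 (-0.68 to -0.24), with cluster 0 at 246.2 and 255.8 CPM as per-cell averages. In the epithelium it was higher in curly cells, by 0.56 (0.42 to 0.71) in HFSC-like cells, 1.49 (1.34 to 1.64) in cluster 6, 0.88 (0.69 to 1.06) in cluster 9, 0.73 (0.39 to 1.08) in matrix-like and 0.65 (0.38 to 0.92) in hair shaft-like cells. In cluster 9, 6.46% of genes passed 2-fold. Cluster 10 was an exception with -0.20 (-0.50 to 0.10). The trimmed mean of all genes lay at -0.36 in HFSC-like cells, and relative to it BGN was at 0.92. In HFSC-like cells VCAN was the 1 gene past 2-fold of the 3 with at least 100 UMIs, where 5.39% of genes were, and in cluster 6 BGN, VCAN and DCN passed it, where 6.72% did.

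VCAN was lower in curly DPC-like cells by -0.42 (-0.63 to -0.22), with cluster 5 at -0.76 (-1.11 to -0.43) and cluster 0 at -0.11 (-0.38 to 0.16). With per-cell averages DPC-like cells had 117.1 and 111.4 CPM, cluster 0 had 107.9 and 124.5 CPM and cluster 5 had 126.8 and 78.5 CPM, so of these DPC-like groups cluster 5 kept a lower curly level of that size. In HFSC-like cells it was higher in the curly library by 1.59 (0.84 to 2.43) and in cluster 6 by 2.66 (2.01 to 3.34), both from few straight UMIs (16 and 27). HFSC-like cells also differed in depth, at a median of 2988 and 5531 UMIs, and thinned to 1000 UMIs VCAN was in 1.72% and 6.56% of them, with 42 and 4 shallower cells left out.

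The 4 genes did not mark the same cells within cluster 0. In cells thinned to 1000 UMIs, LUM was found in 40.2% of straight cells with a DCN UMI and in 12.3% of those without, and in 15.9% and 4.01% of curly cells. VCAN went the other way, in 5.80% of straight cells with and 8.74% of those without DCN, and in 5.49% and 10.2% of curly cells. Of these cells 224 straight and 164 curly had DCN, and only 47 and 37 had VCAN. In cluster 5 VCAN was in 16.7% of straight cells with and 11.7% of those without DCN. The curly shares there were 18.8% and 5.88%, so this relation was not shared by both DPC-like clusters. Only 12 straight and 16 curly cluster 5 cells had DCN. Without thinning, cluster 0 cells with a LUM UMI (233 and 58) had DCN at 1122 and 3099.6 CPM and VCAN at 50.0 and 40.7 CPM. Those without LUM (402 and 412) had DCN at 289 and 603 CPM and VCAN at 123.7 and 100.4 CPM. BGN was 300.1 and 733 CPM in the cells with and 224 and 226.6 CPM in those without a LUM UMI. The order of DCN and VCAN was the same in both libraries, and it is given as a description since the cells of 1 library are not replicates.

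At the finer resolution of 2 the dermal cells formed 4 clusters. The largest (655 and 237 cells) had DCN at 17.9 and 150.2 CPM, LUM at 4.38 and 10.6 CPM and VCAN at 126.8 and 84.6 CPM, with FGF7 at 1056 and 715.7 CPM. The smallest (68 and 103 cells, median depth 890 and 905 UMIs) had DCN at 5791 and 7111 CPM and LUM at 3016 and 1922 CPM, with COL1A1 at 19741 and 21643 CPM. Between them, a cluster of 193 and 136 cells had BGN at 411.5 and 622.9 CPM and LUM at 465.8 and 459.4 CPM. The fourth, of 369 and 239 cells, had LUM at 275 and 10.2 CPM, and DCN at 579.4 and 541 CPM.

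Over 56 points, each a cluster in 1 library with at least 25 cells, the levels of the 4 genes were compared with each other and with 13196 genes by Pearson's r of log2(CPM + 5). The points share 2 libraries, so r is a description. BGN and VCAN were most alike (0.68), then LUM and VCAN (0.63), DCN and LUM (0.54), LUM and BGN (0.43), DCN and BGN (0.30) and DCN and VCAN (0.26). The genes most like DCN were NT5DC2 (0.84), LEF1 (0.75), FABP7 (0.73), EMID1 (0.73) and NSMCE2 (0.72). LEF1 was among the markers that named the matrix-like class, and FABP7, a fatty acid binding protein, had 722.8 and 438.2 CPM in matrix-like and 24.8 and 9.70 CPM in fibroblast-like cells.

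LUM was most like C1QTNF6 (0.94), OLFML1, GFRA2, C1QTNF7 and ITGA8 (0.92), and C1QTNF6 had 161.1 and 553.1 CPM in fibroblast-like and 0 UMIs in matrix-like cells of both libraries. BGN was most like LOC101107401 (0.80), FEZ1 (0.78), AP1S2, SRPX and LOC114108708 (0.73). FEZ1 had its highest levels of the compared classes in cluster 25, at 105.5 and 138.3 CPM, and in HFSC-like cells, at 77.0 and 81.3 CPM. VCAN was most like THY1 (0.86), a surface protein of fibroblasts, COL5A1 (0.84), TRIL, CCDC171 and EFEMP2 (0.83). The CPM of THY1 was 193.5 and 99.3 in the DPC-like class, against 4.09 and 2.23 in the matrix-like class.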

How the data were processed

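Single-cell RNA was measured in 1 pool of straight wool and 1 pool of curly wool lambskin. Per the labels, reads were processed with Cell Ranger, for which the submitters' processing notes give version 3.0.2 and the study's methods another version, on the Oar_rambouillet_v1.0 assembly. The deposited values were natural log values, made by the authors as ln(1 + UMIs scaled to a fixed total per cell). The total is not given in the sources used here. The log was undone, and each cell's values were divided by its smallest value above 0, which was taken as 1 UMI. Of the values above 0, 100% were then whole within a tolerance of 0.01 UMI, and these UMIs were used. The table held 14037 cells (6452 straight, 7585 curly, at least 500 UMIs and 302 genes each), where the series design text gives 15830 after filtering. Median depth was 7373.5 and 7495 UMIs.

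Clusters were built with Seurat 5.3.0 in R 4.3.3 (anchor integration, 2000 variable genes without the 4 proteoglycans, 30 dimensions, resolution 0.8), and named where the mean log2 marker excess reached 1.5 with at least 3 markers detected. These limits, the low-depth rule and the treatment of cycling clusters were set after seeing the data. The members and lists were chosen with earlier results of these data known. Scrublet in scanpy 1.11.5 marked 60 cells (0.427%), which is too few to be trusted, so doublets were kept and the 6% of cells with the highest scores (842) were removed as an alternative.

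UMIs were summed per class and library, with exact Poisson intervals for levels and exact binomial intervals for ratios of sums. With 1 library per wool type no test was made, and gene comparisons used at least 100 UMIs and a 2-fold limit. Named genes were the 4 proteoglycans, the 5 genes most like each, up to 4 at each end of each list, EGFR, CD44, ITGB1 and class markers. The ratio intervals were tried on simulated sums with independent Poisson error. That setting cannot show whether they hold for UMIs spread unevenly over cells. Thinning to 1000 UMIs left out 608 straight and 879 curly cells. Gene names and neighbours came from the RefSeq annotation of ARS-UI_Ramb_v3.0, another assembly, so no coordinates are given. Alternatives were other resolutions, no integration, a higher minimum of genes per cell, doublet removal, averaging per-cell CPM, the members among variable genes, trimmed mean of M values scaling, a lower UMI minimum and cluster 10 counted as matrix. Sums and figures were made in Python 3.11.15 with scipy 1.17.1, numpy 2.4.6, matplotlib 3.10.9 and pandas 2.3.3.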

Additional observations from a re-analysis of the deposited data

Results flagged for a closer look

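For 3 of the genes, the difference between the curly and the straight library went in opposite directions in different classes with intervals that did not include 0. These differences between classes were not tested, since each wool type had 1 library. DCN was 1.49 (log2) higher in the curly library in DPC-like cells (1735 straight and 1893 curly UMIs) and at -0.69 in IRS-like cells (161 and 382 UMIs), where its levels of 85.6 and 53.0 CPM lay beside 80.4 and 52.1 CPM in endothelial-like cells. BGN was at 1.30 in IRS-like cells, from 9 and 85 UMIs, and at -0.56 in pericyte-like cells, from 198 and 241 UMIs. VCAN was at 1.59 in HFSC-like cells, from 16 and 154 UMIs, and at -2.02 in pericyte-like cells, from 9 and 4 UMIs.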

How the results depend on the processing

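The differences below are log2 and, for dermal cells against another class, means over both libraries. Of the recomputed main values, 71 moved by less than the spread, 30 moved by more and 5 changed sign, and the signs of LUM, BGN and VCAN against matrix-like cells did not change under any alternative that gave a value. At resolution 0.4, DCN was -2.57 against matrix, -0.17 against the other follicle epithelium (a changed sign) and 0.37 for curly over straight in matrix-like cells. Without integration, DCN, BGN and VCAN were 0.40, 1.95 and 5.08 against the other follicle epithelium. With a higher minimum of genes per cell (879 of 1998 dermal cells kept), DCN was -4.17 against matrix, and DCN, LUM, BGN and VCAN were -0.28 (a changed sign), 6.18, 1.45 and 4.88 against the other follicle epithelium, 3.15, 1.48, -0.17 and -0.68 for curly over straight in dermal cells, and DCN 0.19 in matrix-like cells. With doublet scores removed, curly over straight was 0.03 for DCN in matrix-like and -0.19 for BGN in dermal cells. With per-cell CPM averaged, DCN was -2.51 against matrix, DCN, BGN and VCAN were 1.18, -0.02 (a changed sign) and 2.97 against the other follicle epithelium, and curly over straight was 0.96, -0.15 (a changed sign), -0.14 and -0.01 for DCN, LUM, BGN and VCAN in dermal cells and -0.12 (a changed sign) for DCN in matrix-like cells. With the 4 genes among the variable genes, DCN was -2.96 against matrix, 1.08 against the other follicle epithelium, 0.15 for curly over straight in matrix-like cells and -0.78 (a changed sign) for fibroblast-like against matrix. With cluster 10 counted as matrix, an alternative chosen after seeing the data, DCN was -2.57 against matrix and 0.37 for curly over straight in matrix-like cells, and trimmed mean scaling gave 0.17 for the latter. With genes of at least 20 UMIs, 12.4% of genes in dermal and 7.03% in matrix-like cells passed 2-fold. The causes were not tested. Resolution 2, also chosen after seeing the data, named no matrix-like class and the higher gene minimum no fibroblast-like class. No paired analysis was possible because each wool type had 1 library. Few UMIs limit the ratios of LUM and VCAN in matrix-like cells (3 to 9 UMIs) and of BGN and VCAN in fibroblast-like cells (15 to 27 UMIs).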
